A study of Mus musculus with 8 samples.

Results

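Stellate cells and pericytes are the perivascular mesenchymal cells of liver and of small vessels elsewhere, and 10 genes that mark them were followed here: Reln, Lrat, Hgf, Ecm1, Colec11, Colec10, Rgs5, Des, Pdgfrb and Dcn. They were taken by name, and all 10 were found among 55487 genes in the count table and passed the filter on low counts, which 14353 genes passed. Per the labels, the RNA came from MC38 tumors, a murine colon cancer line carrying GFP that was implanted under the skin of Bmal1+/+ mice or of mice with germline loss of the clock gene Bmal1 (Bmal1-/-). GFP-negative cells, labelled as the stromal vascular fraction, were sequenced in 4 libraries per genotype, with 1 library per sample. The deletion was in the host and not in the tumor cells, and neither group received a drug. Age and sex of the animals, and whether a sample came from 1 mouse or a pool, are not given in the sources used here. The p-values therefore measure the spread between these samples. The paper does not state the time of day of tissue collection, so a difference in collection time could not be told apart from genotype.

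A hepatic stellate cell lies between hepatocytes and the sinusoidal endothelium, stores vitamin A as retinyl esters and secretes growth factors for its neighbors. On injury it turns into a myofibroblast that deposits collagen. Pericytes hold the same place around capillaries, where platelet-derived growth factor from the endothelium recruits them through PDGFRβ. Colec10, Colec11, Lrat, Reln and Hgf are used as liver stellate cell genes, Rgs5, Des and Pdgfrb mark mural cells of many organs, and Dcn is made by stellate cells and fibroblasts alike.

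Library totals were between 14783346 and 18449143 counts in the Bmal1+/+ samples and between 14054825 and 15624815 in the others. RNA of the targeted gene was higher, not lower, under the Bmal1-/- label. Bmal1 (Arntl) ranged from 0.960 to 2.71 CPM (counts scaled to the library total and edgeR's TMM factor) in Bmal1+/+ libraries and from 30.1 to 35.0 CPM in those carrying the other label, which are therefore called the libraries labelled Bmal1-/-. Counts over the whole gene do not show whether its transcripts are functional, so these levels do not settle the genotype. Dbp, a clock output gene, was lower in the libraries labelled Bmal1-/-, with 67.0 to 113 CPM against 3.73 to 6.97 CPM. Xist ranged from 844 to 1090 CPM in Bmal1+/+ libraries and at most 0.749 CPM in the libraries labelled Bmal1-/-, and Ddx3y, Kdm5d, Uty and Eif2s3y of the Y chromosome had 0 counts in each Bmal1+/+ library, so that sex and genotype cannot be told apart in any difference below. The values went against the labelled tissue, since transcripts of hepatocytes were abundant in all 8 libraries. Albumin (Alb) ranged from 64300 to 71900 CPM in Bmal1+/+ libraries and from 12700 to 18800 CPM in the libraries labelled Bmal1-/-. The fibroblast marker Fap reached at most 7 counts, while 5 of 10 listed fibroblast markers passed the filter on low counts. Of 2 intestinal epithelial markers, Cdx2 had 0 counts throughout and Krt20 at most 1. Per the labels GFP-positive tumor cells were sorted out, so low epithelial markers do not bear on the tissue. Replicate 4 of the libraries labelled Bmal1-/- stood apart, with 7750 CPM of the acute-phase gene Saa1 against at most 80.3 CPM in any other library.

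Of the 10 genes, 6 were lower in the libraries labelled Bmal1-/- and 0 were higher with adjusted p below 0.05 (quasi-likelihood test in edgeR, Benjamini-Hochberg adjustment over all genes tested). Of all 14353 genes tested, 16.2% were lower and 14.9% were higher by the same rule. The 10 genes were chosen with earlier results of these data known. The shares over all genes are therefore a reference, and an excess among the 10 was not tested. The 6 were Hgf, Lrat, Colec10, Ecm1, Dcn and Colec11. The fitted log2 fold change was negative for all 10, from -1.45 to -0.36, with a median of -0.70, against a median of 0.02 over all genes tested. No gene of the 10 was higher at an unadjusted p below 0.05, and DESeq2 and limma-voom called 0 higher. By the study's own criterion, an absolute log2 fold change above 1 with an unadjusted p below 0.05, 4 of 10 were lower (Hgf, Lrat, Colec10 and Ecm1), against 8.71% of all genes tested. The groups did not overlap for 6 of 10, where 16.8% of all genes tested lay lower without overlap. Because the RNA is from a mixture, fewer cells of a type and less RNA per cell cannot be told apart.

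**Figure D1:**
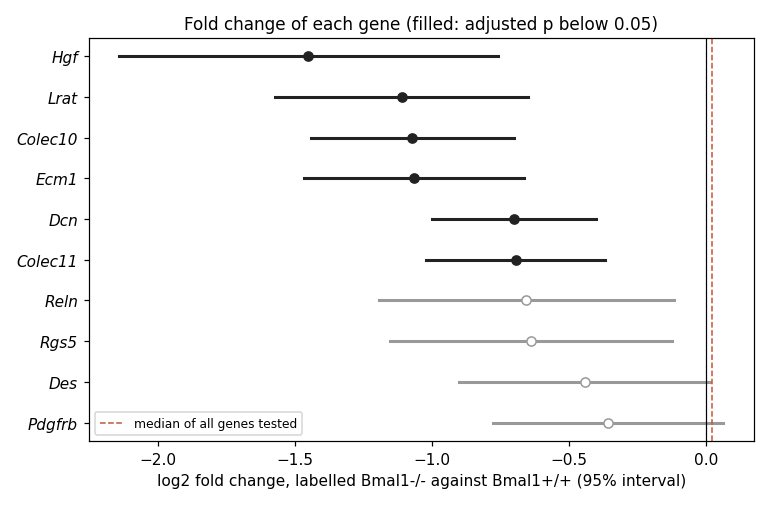
The plot shows the log2 fold change of each of the 10 genes in the libraries labelled Bmal1-/- against Bmal1+/+ libraries, with its 95% interval; filled points passed an adjusted p of 0.05. All points lie left of the dashed median of all genes tested, from -1.45 for Hgf to -0.36 for Pdgfrb, and the intervals of Des and Pdgfrb reach past 0.

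Promoter windows of 300 bases, from 250 bases before the transcription start to 50 after it, were matched in RefSeq for 7 of the 10 genes, in 8 windows because Hgf has 2 starts. They were searched on both strands for the E-box CACGTG that BMAL1 and CLOCK bind, the D-box TTATGTAA, the nuclear receptor half-site AGGTCA, the GC-box GGGCGG and the TATA box TATAAA, none of which contains another. The E-box was present in 1 of the 8 windows, that of Reln, and in 7.15% of 32851 mouse promoter windows. The TATA box was found in Ecm1 alone (13.62% of all windows) and the GC-box in Des, Ecm1, Lrat and Reln (35.66% of all windows). No window held the D-box (0.94% of all windows) or the half-site (16.26% of all windows). The G and C content was 80.7% for Reln and between 51.3% and 65.3% for the other windows, against a median of 52.7% over all. The 250 bases before the start are shown 5′ to 3′ on the gene's strand for Reln, which holds the E-box, for Ecm1, which holds a TATA box, and for the first start of Hgf, the gene with the lowest fold change, which holds no searched motif; motifs are in capitals. They lie in GRCm38.p6 at chr5:22344706-22344955 on the minus strand for Reln, at chr3:95739570-95739819 on the minus strand for Ecm1 and at chr5:16553245-16553494 on the plus strand for Hgf. In Reln the E-box starts 71 bases before the transcription start, and in Ecm1 the TATA box starts 27 bases before it.
Reln: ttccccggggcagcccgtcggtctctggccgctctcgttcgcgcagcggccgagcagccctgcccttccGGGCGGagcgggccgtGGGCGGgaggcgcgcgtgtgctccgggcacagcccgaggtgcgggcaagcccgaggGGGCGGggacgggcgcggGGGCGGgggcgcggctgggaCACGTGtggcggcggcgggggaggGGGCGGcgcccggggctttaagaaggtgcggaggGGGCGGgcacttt
Ecm1: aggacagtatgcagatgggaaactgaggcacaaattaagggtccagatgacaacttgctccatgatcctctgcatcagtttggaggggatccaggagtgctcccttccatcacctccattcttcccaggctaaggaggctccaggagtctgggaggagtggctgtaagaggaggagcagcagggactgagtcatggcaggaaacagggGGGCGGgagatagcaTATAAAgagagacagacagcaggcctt
Hgf: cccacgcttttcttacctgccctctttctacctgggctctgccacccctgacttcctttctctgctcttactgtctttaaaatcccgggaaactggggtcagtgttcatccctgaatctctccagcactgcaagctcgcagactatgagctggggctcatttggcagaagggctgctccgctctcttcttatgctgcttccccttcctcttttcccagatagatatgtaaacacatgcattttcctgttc

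Hgf, Lrat and Reln are described next. Hgf (ENSMUSG00000028864, chromosome 5 of GRCm38 from 16553495 to 16620152, plus strand) encodes hepatocyte growth factor, the ligand of the receptor MET. It had 9.03, 15.7, 10.3 and 14.8 CPM in Bmal1+/+ replicates 1 to 4 and 5.43, 4.99, 1.99 and 5.77 CPM in replicates 1 to 4 of the libraries labelled Bmal1-/-. Every library labelled Bmal1-/- was below every Bmal1+/+ library, and replicate 3 was the lowest, with 28 counts. The means were 12.5 ± 3.26 CPM and 4.54 ± 1.73 CPM (SD, n = 4 each), a 2.74-fold difference. The log2 fold change was -1.45 (± 0.31 SE, adjusted p = 0.00644).

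Lrat (ENSMUSG00000028003, chromosome 3 from 82892579 to 82903973, minus strand) encodes lecithin retinol acyltransferase, which makes the retinyl esters that stellate cells store. Its level was 27.8, 36.0, 16.9 and 23.3 CPM in Bmal1+/+ replicates 1 to 4 and 10.7, 13.3, 12 and 12.1 CPM in the libraries labelled Bmal1-/-. The groups did not overlap, and the spread was wide in Bmal1+/+ libraries, with a coefficient of variation of 30.9%, and narrow in the others, with 8.67%. The mean in the libraries labelled Bmal1-/- was 46.3% of that in Bmal1+/+ libraries, with a log2 fold change of -1.11 (± 0.21 SE, adjusted p = 0.00331).

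Reln (ENSMUSG00000042453, chromosome 5 from 21884454 to 22344702, minus strand) encodes reelin, a large secreted glycoprotein best known from the positioning of neurons. It had 53.6, 75.4, 58.4 and 72.0 CPM in Bmal1+/+ libraries and 56.0, 51.9, 27.8 and 29.0 CPM in the libraries labelled Bmal1-/-. Replicate 1 of the latter lay within the Bmal1+/+ range, and replicates 3 and 4 were at 42.9% and 44.7% of the Bmal1+/+ mean. With a log2 fold change of -0.65 (± 0.24 SE) it missed the threshold, at adjusted p = 0.0647. Reln was called in 4 of 19 alternative fits, among them DESeq2 (adjusted p = 0.0302). Leaving out single libraries gave log2 fold changes from -0.83 (adjusted p = 0.0301, without replicate 1 of the libraries labelled Bmal1-/-) to -0.52 (adjusted p = 0.124, without replicate 4 of them).

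**Figure D2:**
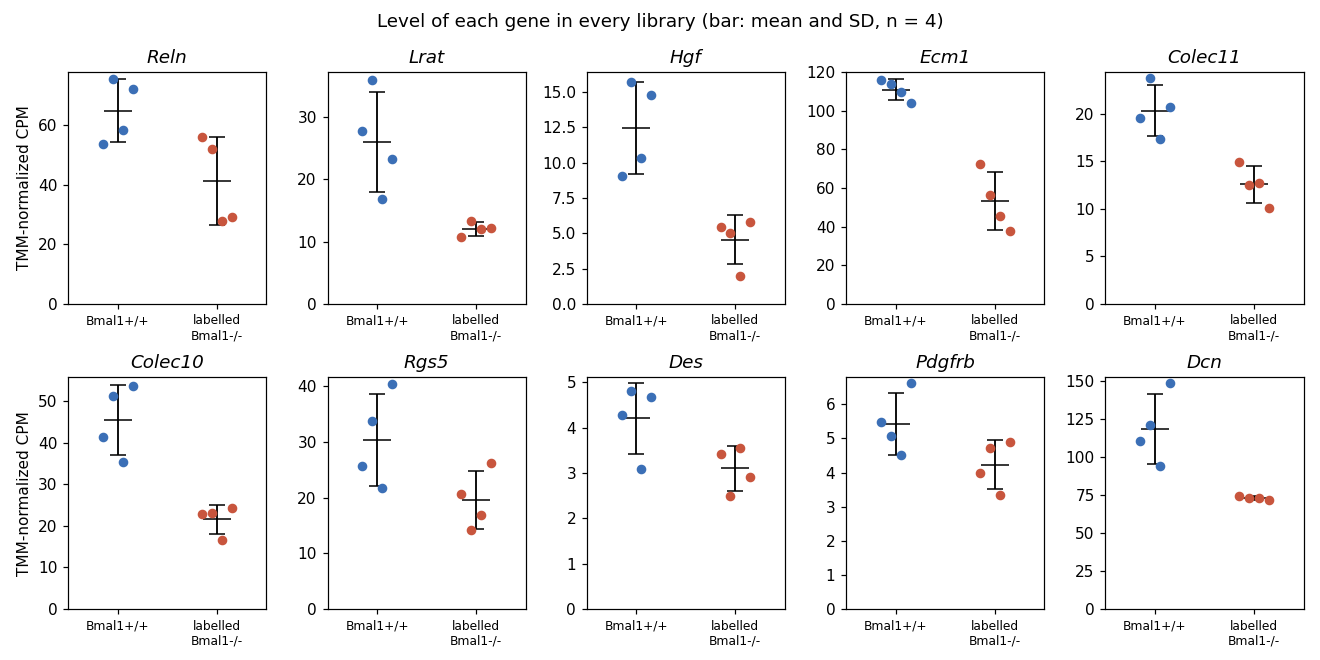
The plot gives normalized CPM on a linear axis from 0 for each gene in the 4 Bmal1+/+ and 4 libraries labelled Bmal1-/-; points are libraries in the order of replicates 1 to 4, and bars show mean and SD. The groups are apart for Lrat, Hgf, Ecm1, Colec11, Colec10 and Dcn, and overlap for Reln, Rgs5, Des and Pdgfrb.

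The collectins Colec10 and Colec11 encode secreted lectins (CL-L1 and CL-K1) that bind sugars on microbes, form joint complexes and start the lectin pathway of complement with MASP proteases. Colec10 (ENSMUSG00000038591, chromosome 15 from 54410774 to 54466358, plus strand) had 41.4, 51.2, 35.5 and 53.7 CPM in Bmal1+/+ libraries and 22.8, 23.0, 16.5 and 24.2 CPM in the libraries labelled Bmal1-/-. All 4 libraries labelled Bmal1-/- were below the lowest Bmal1+/+ library, and the log2 fold change was -1.07 (± 0.17 SE, adjusted p = 0.00128). Colec11 (ENSMUSG00000036655, chromosome 12 from 28594173 to 28623377, minus strand) had 19.5, 23.7, 17.3 and 20.7 CPM against 14.9, 12.5, 12.7 and 10.1 CPM. It also separated the groups, with a smaller log2 fold change of -0.69 (± 0.15 SE, adjusted p = 0.00621). Whether both fold changes differ was not tested. Per transcript length (FPKM, fragments scaled to transcript length and library total), the ratio of Colec10 to Colec11 was 1.04 ± 0.114 in Bmal1+/+ libraries and 0.824 ± 0.221 in the libraries labelled Bmal1-/- (SD, n = 4 each). The ratios overlapped, from 0.957 to 1.21 and from 0.607 to 1.12, with replicate 4 of the libraries labelled Bmal1-/- inside the Bmal1+/+ range.

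Ecm1 and Dcn encode matrix proteins. Ecm1 (ENSMUSG00000028108, chromosome 3 from 95734147 to 95739569, minus strand) is a secreted glycoprotein known in liver for keeping latent TGF-β inactive. Its level was 116, 114, 110 and 104 CPM in Bmal1+/+ libraries, a coefficient of variation of 4.62%, and 72.4, 56.6, 45.6 and 37.8 CPM in the libraries labelled Bmal1-/-, with 28.3%. The groups were far apart, and the log2 fold change was -1.06 (± 0.18 SE, adjusted p = 0.00199). Dcn (ENSMUSG00000019929, chromosome 10 from 97479609 to 97518143, plus strand) encodes decorin, a small leucine-rich proteoglycan that binds collagen fibrils and TGF-β. It had 111, 121, 94.2 and 149 CPM in Bmal1+/+ libraries and 74.5, 73.2, 73.4 and 71.6 CPM in the libraries labelled Bmal1-/-. These 4 values varied by only 1.62%, against 19.3% in Bmal1+/+ libraries. The log2 fold change of Dcn was -0.70 (± 0.13 SE, adjusted p = 0.00385).

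The 3 mural cell genes did not pass the adjusted test, and 1 of them had an unadjusted p below 0.05. Rgs5 (ENSMUSG00000026678, chromosome 1 from 169655501 to 169695813, plus strand), a regulator of G protein signaling and a pericyte marker, had 25.7, 33.7, 21.8 and 40.3 CPM in Bmal1+/+ libraries and 20.7, 14.2, 16.9 and 26.2 CPM in the libraries labelled Bmal1-/-. Only replicate 4 of the latter reached into the Bmal1+/+ range, and the log2 fold change was -0.64 (± 0.23 SE, adjusted p = 0.0602). It was called in 5 of 19 alternative fits, among them DESeq2 (adjusted p = 0.0314). Leaving out single libraries gave values from -0.81 (adjusted p = 0.0223, without that library) to -0.48 (adjusted p = 0.152, without replicate 4 of Bmal1+/+), and Rgs5 was also called without replicate 3 of Bmal1+/+ (-0.77, adjusted p = 0.035).

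Des (ENSMUSG00000026208, chromosome 1 from 75360329 to 75368579, plus strand) encodes desmin, an intermediate filament protein of muscle, stellate cells and pericytes. It had 4.27, 4.80, 3.09 and 4.68 CPM against 3.43, 2.49, 3.56 and 2.92 CPM, from at most 84 counts in a library. The ranges overlapped, with Bmal1+/+ replicate 3 below 2 of the libraries labelled Bmal1-/-, and the log2 fold change was -0.44 (95% interval -0.90 to 0.02, adjusted p = 0.13). Pdgfrb (ENSMUSG00000024620, chromosome 18 from 61045150 to 61085061, plus strand) encodes the receptor for platelet-derived growth factor B. Its level was 5.48, 5.06, 4.50 and 6.63 CPM against 4.00, 4.71, 3.34 and 4.88 CPM. The log2 fold change was -0.36 (95% interval -0.78 to 0.06, adjusted p = 0.179), so a decrease of this size was within the spread between replicates, and at these counts the interval does not show equal levels either.

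The libraries ranked in a partly shared way. Relative to the Bmal1+/+ mean of each gene, the median over the 10 genes was 94.9%, 113%, 81.1% and 115% in Bmal1+/+ replicates 1 to 4 and 66.7%, 55.2%, 51.0% and 51.6% in replicates 1 to 4 of the libraries labelled Bmal1-/-. Bmal1+/+ replicate 3 was the lowest of its group for 7 of the 10 genes. Among the libraries labelled Bmal1-/- the lowest was replicate 3 for 4 genes, replicate 4 for 3, replicate 2 for 2 and replicate 1 for 1. The median coefficient of variation over the 10 genes was 18.6% in Bmal1+/+ libraries and 16.4% in the libraries labelled Bmal1-/-, and over all genes tested 15.3% and 17.5%.

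**Figure D3:**
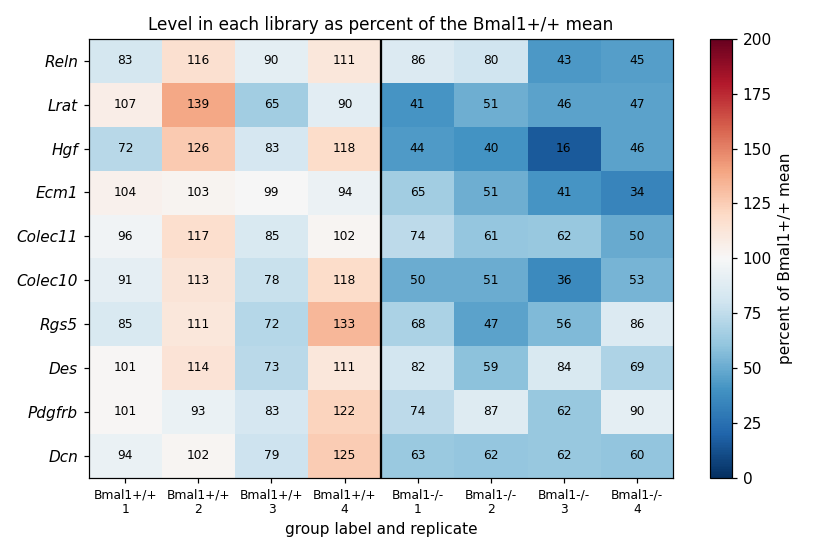
The heat map gives the level of each gene in each library as percent of its Bmal1+/+ mean, with genes in rows and the 8 libraries in columns, left of the line Bmal1+/+ and right of it the libraries labelled Bmal1-/-. The 40 cells on the right are all below 100%, from 16.0% for Hgf in replicate 3 to 90.2% for Pdgfrb in replicate 4.

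The order of levels per transcript length was nearly kept. In the deposited FPKM, Ecm1 and Dcn led in every library, with means of 22.9 and 16.8 FPKM in Bmal1+/+ libraries and 11.2 and 10.6 FPKM in the libraries labelled Bmal1-/-. In the libraries labelled Bmal1-/- their ranges, 7.70 to 15.5 and 10.1 to 11 FPKM, overlapped. Colec10 and Colec11 followed with 9.77 and 9.38 FPKM in Bmal1+/+ libraries, within each other's range, then Rgs5 with 6.44, Lrat with 4.79 and Reln with 2.38 FPKM. The lowest 3 were Hgf, Des and Pdgfrb, with 1.09, 0.953 and 0.696 FPKM. In the libraries labelled Bmal1-/- Hgf came last in every library, with 0.408 FPKM and a range of 0.177 to 0.502, below Des at 0.717 and Pdgfrb at 0.555 FPKM.

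**Figure D4:**
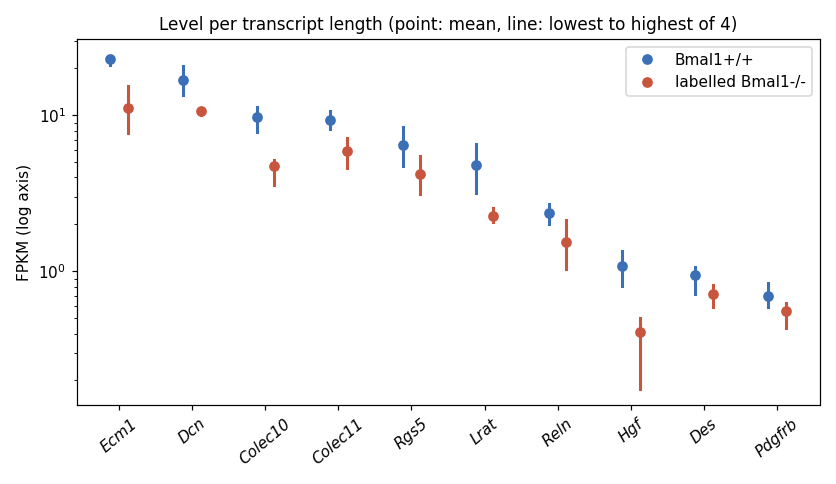
The plot gives FPKM on a log axis for each gene, ordered by the Bmal1+/+ mean; points are means and lines run from the lowest to the highest of 4 libraries. Hgf falls from 1.09 to 0.408 FPKM and from rank 8 to rank 10, while Ecm1 and Dcn stay the top pair.

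In each pathway the partners of these genes were counted from lists of named genes. Over all genes tested, 16.2% were lower and 14.9% were higher, and whether any list departed from these shares was not tested. For reelin, 7 of 9 listed genes were tested, 2 were lower and 1 was higher. The reelin receptor gene Vldlr fell from 19.1 ± 6.19 to 1.59 ± 0.294 CPM (SD, n = 4 each), with a log2 fold change of -3.58 (adjusted p = 1.88e-05), the kinase gene Fyn fell by 0.79 on the log2 scale (adjusted p = 0.00418) and Src rose by 2.83 (adjusted p = 1.33e-04). The other receptor gene Lrp8 and the adaptor gene Dab1 had at most 4 and 3 counts in a library. For HGF, 9 of 12 listed genes were tested, and 2 were lower and 1 higher. Hgfac, a protease that activates HGF, had a log2 fold change of -0.58 (adjusted p = 0.011), the MET adaptor gene Gab1 one of -1.05 (adjusted p = 5.09e-04), and Spint2, an inhibitor of HGF-activating proteases, rose from 55.2 ± 9.13 to 116 ± 12.1 CPM (SD, n = 4 each), a log2 fold change of 1.07 (adjusted p = 3.97e-04). Met itself had a log2 fold change of -0.31 (adjusted p = 0.164).

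Around Lrat, 19 of 24 retinoid genes were tested, 6 were lower and 4 higher. Lower were Rarb, the retinoic acid receptor β gene, with a log2 fold change of -2.25 (adjusted p = 0.00184), Rdh11, a retinal reductase gene, with -1.70 (adjusted p = 0.00115), and Pnpla3, which encodes a lipase that can release retinol from its esters, with 28.4 ± 11.6 CPM against 0.203 ± 0.147 CPM (SD, n = 4 each, adjusted p = 1.16e-05), a level near that of 3 counts, which is 0.187 to 0.213 CPM in these libraries. Higher were the retinoic acid receptor α gene Rara, with 0.87 (adjusted p = 0.0015), the retinal reductase gene Dhrs3, with 0.95 (adjusted p = 0.00309), and Stra6l, a retinol uptake receptor gene, with 0.94 (adjusted p = 0.00502). In the lectin pathway, 9 of 10 listed genes were tested, with 2 lower and 1 higher. The mannose-binding lectin genes went apart, Mbl1 with a log2 fold change of 1.18 (adjusted p = 3.98e-04) and Mbl2 with -0.99 (adjusted p = 7.58e-04). Fcna was the other gene that was lower (log2 fold change -0.56, adjusted p = 0.0424), and leaving out any library but replicate 4 of the libraries labelled Bmal1-/- reduced the count of lower genes to 1. The protease genes Masp1 and Masp2 had log2 fold changes of -0.09 and 0.07.

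The 5 other PDGF genes were all tested. Pdgfc, a ligand gene of PDGFRα, rose from 2.60 ± 1.04 to 16.1 ± 4.19 CPM (SD, n = 4 each), a log2 fold change of 2.62 (adjusted p = 1.94e-04), while Pdgfb, the ligand gene of PDGFRβ, had 1.52 ± 0.317 and 1.57 ± 0.506 CPM. Of 10 small leucine-rich proteoglycans beside Dcn, 7 were tested, 4 were lower and 1 higher. The count of lower genes was 3 without Bmal1+/+ replicate 1, 2 or 4 and without replicate 4 of the libraries labelled Bmal1-/-. It was also 3 with the replicate number as a block and with no filter on low counts. Bgn had a log2 fold change of -1.08 (adjusted p = 0.0012), Lum one of -0.99 (adjusted p = 0.0108), Prelp one of -0.78 (adjusted p = 0.00288) and Podn one of -0.84 (adjusted p = 0.0305). Omd, the gene that was higher, had 0.197 ± 0.0624 CPM in Bmal1+/+ libraries, near the level of 3 counts, and 4.91 ± 2.59 CPM in the others (SD, n = 4 each, adjusted p = 1.16e-04).

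Other genes of the same cell types were lower in part. Of 20 other stellate cell genes, 19 were tested, 12 were lower, the other 7 did not pass the test, and the median log2 fold change was -0.86. Col14a1, a fibril-associated collagen gene, had a log2 fold change of -1.71 (adjusted p = 1.15e-04), Gdf2, which encodes BMP9, one of -1.37 (adjusted p = 1.43e-04), and Cxcl12, a chemokine gene, one of -1.10 (adjusted p = 5.89e-04). Hand2, a transcription factor gene of stellate cells, had -1.25 (adjusted p = 0.00128), whereas Lhx2, another, had 2.81 ± 0.666 and 2.88 ± 0.606 CPM (SD, n = 4 each). The summed level of this list ranged from 719 to 780 CPM in Bmal1+/+ libraries and from 375 to 1250 CPM in the libraries labelled Bmal1-/-. The upper end was set by Steap4, with 958 CPM in replicate 4 of that label against at most 233 CPM in Bmal1+/+ libraries. That library was the one with 7750 CPM of Saa1. Of 11 genes of stellate cell activation, 8 were tested and 2 were lower, Col3a1 with -0.98 (adjusted p = 0.00231) and Col1a2 with -0.76 (adjusted p = 0.00845), and without replicate 3 of Bmal1+/+ 4 were lower. Spp1, which encodes the secreted protein osteopontin, had 26.6 ± 3.46 and 57.2 ± 43.7 CPM (SD, n = 4 each), a log2 fold change of 1.10 (adjusted p = 0.0646). Its highest value, 122 CPM, was in the same replicate 4 of the libraries labelled Bmal1-/-. In DESeq2, in the edgeR likelihood ratio test and with no filter on low counts, 1 gene of the list was called higher. The same count was found when replicate 2 or 3 of the libraries labelled Bmal1-/- was omitted. Which gene this was is not reported per alternative. Col1a1 had 4.18 ± 0.985 and 4.15 ± 1.2 CPM (SD, n = 4 each), and Acta2, which encodes α-smooth muscle actin, had -1.14 (adjusted p = 0.0514). Of 14 other mural cell genes, 10 were tested, 4 were lower, 6 did not pass the test, and the median log2 fold change was -0.52. Myh11, a smooth muscle myosin gene, had -2.04 (adjusted p = 0.0078) and Abcc9, a potassium channel subunit gene of pericytes, had -1.0 (adjusted p = 0.00207). Gja4 (-0.93, adjusted p = 0.0442) and Anpep (-0.45, adjusted p = 0.0495) were also lower, but their groups overlapped. The fold change was negative for 8 of the 10 tested, and positive for Kcnj8 (0.19, adjusted p = 0.579) and Ndufa4l2 (0.9, not called). The count of lower genes fell to 2 without Bmal1+/+ replicate 2 or 4, and likewise without any of the libraries labelled Bmal1-/- but replicate 4. The pericyte genes Cspg4, Higd1b and Cox4i2 had at most 2 counts in any library.

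Markers of other cell types were counted in the same fit, and their part in the differences above was not tested. Of 10 sinusoidal endothelial markers, 6 were lower, with a median log2 fold change of -0.48 and summed levels of 497 to 562 CPM in Bmal1+/+ libraries against 323 to 452 CPM. Of 10 macrophage and Kupffer cell markers, 9 were lower, with a median of -1.07 and sums of 625 to 792 CPM against 280 to 572 CPM. Of 10 hepatocyte markers, 1 was lower and 2 were higher, with a median of -0.05 and sums of 98000 to 107000 CPM against 52800 to 68100 CPM. The lower one was Alb, with a log2 fold change of -2.10 (adjusted p = 6.8e-05), and the sum of the 9 markers without Alb was 33600 to 35600 CPM in Bmal1+/+ libraries against 37100 to 55300 CPM. The higher ones were Apoa1 (1.58, adjusted p = 0.00107) and Fgb (1.14, adjusted p = 0.0269), whereas Hnf4a had 838 ± 105 and 726 ± 91.9 CPM (SD, n = 4 each). Fgb ranged from 2770 to 3500 CPM in Bmal1+/+ libraries and from 4180 to 12500 CPM in the others. Trf, another of the 9 markers, ranged from 9990 to 11700 CPM and from 5350 to 20300 CPM. Both upper ends were in replicate 4 of the libraries labelled Bmal1-/-, the library high in Saa1. The summed level of Reln, Lrat, Hgf, Ecm1, Colec11 and Colec10 was 267, 316, 249 and 289 CPM in Bmal1+/+ libraries and 182, 162, 117 and 119 CPM in the libraries labelled Bmal1-/-. Its ratio to the summed endothelial markers ran from 47.5% to 59.2% in Bmal1+/+ libraries and from 32.2% to 40.3% in the others, without overlap. Of the 6 summed genes, 5 were called lower above, and their median log2 fold change was -1.07. The ratio therefore restates those values and is not a separate test. Rgs5, Des and Pdgfrb, with a median of -0.44, are not in the sum. Ecm1 and Reln weighed most in the sum, with means of 111 and 64.8 CPM in Bmal1+/+ libraries. The ratio to the summed macrophage markers overlapped, from 33.7% to 50.6% and from 20.8% to 58.0%. The lowest, 20.8%, was in replicate 4 of the libraries labelled Bmal1-/-, with a macrophage sum of 572 CPM. In replicates 1 to 3 of that label these sums were 280 to 321 CPM and the ratios 41.0% to 58.0%.

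**Figure D5:**
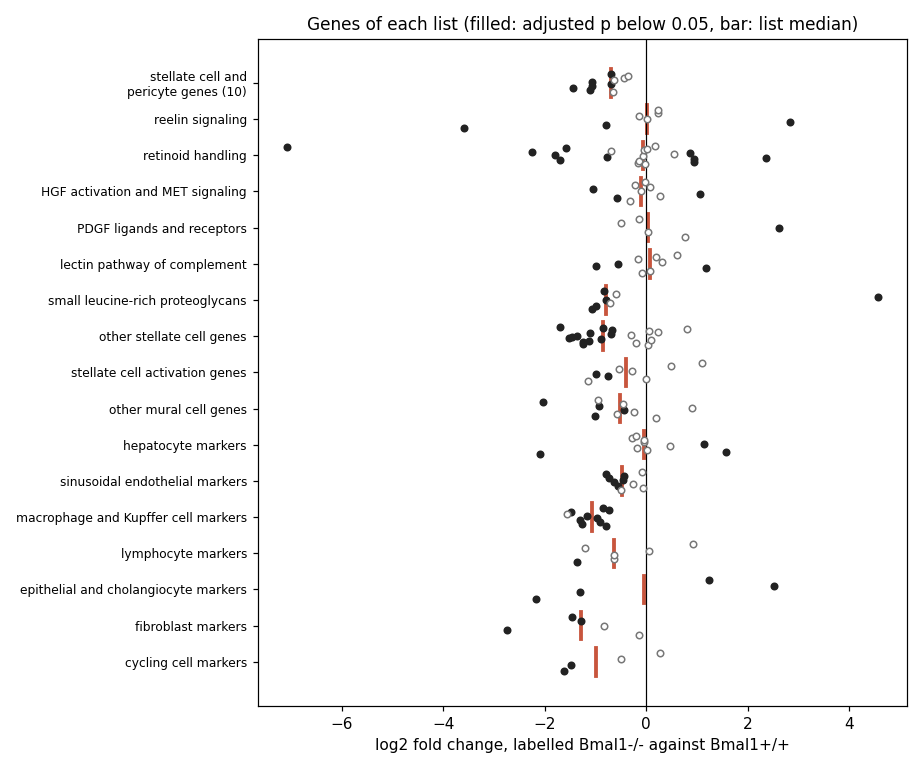
Each point is a tested gene, placed by its log2 fold change in the libraries labelled Bmal1-/- against Bmal1+/+ libraries, with lists in rows; filled points have an adjusted p below 0.05 and the bar is the list median. The 10 stellate cell and pericyte genes all lie left of 0 with a median of -0.70, between the medians of sinusoidal endothelial markers (-0.48) and macrophage markers (-1.07). Over all lists shown, medians run from -1.28 for fibroblast markers to 0.07 for the lectin pathway of complement. Other stellate cell genes have -0.86, cycling cell markers -0.99 and lymphocyte markers -0.64.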

How the data were processed

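The RNA sequencing data of 4 Bmal1+/+ and 4 Bmal1-/- samples were used, grouped by the genotype label, with replicate numbers from the sample descriptions (replicate 4 of Bmal1-/- is titled KO6). Per the paper's methods, the authors aligned read pairs by HISAT2 (build GRCm38) and derived per-gene values by StringTie, and the deposited counts are not normalized. The submitters' processing notes list TopHat2 2.0.6 instead, and strand use is not stated. The deposited FPKM values equal the count over the library total and 1 fixed length per gene within 1% for 100% of 14182 genes, and served only to compare genes with each other and in an alternative.

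Symbols and coordinates are from GENCODE M21 (GRCm38), and 99.4% of 55487 identifiers matched. Reln, Hgf, Ecm1 and Des share exonic bases with other annotated genes, which had at most 5 counts in a library.

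Counts were filtered by filterByExpr, scaled by TMM and tested by quasi-likelihood (edgeR 4.0.16, R 4.3.3), with a prior count of 0.125 and Benjamini-Hochberg adjustment over 14353 genes. Standard errors are the log2 fold change over the square root of F. Context genes named are up to 3 lower and 3 higher per list with the smallest adjusted p and no overlap between groups, and others are named after their values were seen. DESeq2 1.42.0 and limma 3.58.1 were alternatives. The genes and lists were chosen with earlier results of these data known. A level of 3 counts, the detection floor, covers counting error only. Pairs of libraries with the same label differed beyond sampling noise (chi-square per degree of freedom of at least 18.0). Figures were drawn with matplotlib 3.10.9.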

Additional observations from a re-analysis of the deposited data

How the results depend on the processing

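Under 19 alternatives (DESeq2, library size only, upper-quartile and RLE factors, the likelihood ratio test, limma-voom, limma on log2(FPKM + 0.1), 2 other filters, a prior count of 2, each library left out and the replicate block), all 190 fold changes of the 10 genes stayed negative and no call was lost. Between 6 and 8 genes were called lower. Of all genes tested, 7.33% (no filter on low counts) to 18% (DESeq2) were lower in the same alternatives. The 9 gained calls were of Reln in 4 alternatives and of Rgs5 in 5. Des and Pdgfrb were never called, with lowest adjusted p of 0.0633 and 0.138. With a library left out, 6 to 7 genes were called lower, 0 were higher and 3 to 4 passed the study's criterion. In those fits 12.9% to 16.9% of all genes tested were lower, and the share passing the study's criterion was not counted. Of the 9 pathway, stellate and mural lists, 38 to 42 genes were called either way, against 43 with all libraries. Whether these counts depart from the shares over all genes was not tested. The lists of other cell types were not run under the alternatives.

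Same-numbered samples did not deviate together, with correlations of -0.0642, 0.0630, 0.0435 and 0.0362 for numbers 1 to 4 across genes, so the number was not taken as a pairing. With the replicate block, 7 genes were called lower, the added one being Rgs5 (log2 fold change -0.63, adjusted p = 0.0371), and the block changed no other call among the 10. Calls lower made up 52.1% of all calls in the TMM fit and 48.8% with library size only, and the median of all genes moved from 0.02 to 0.05. With 28 to 87 counts in the libraries labelled Bmal1-/-, Hgf, and with 36 to 119 counts, Des and Pdgfrb rest on the fewest reads.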

Other observations

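Markers of cell types not yet described were counted in the same fit. Of 10 fibroblast markers, 5 were tested and 3 were lower in the libraries labelled Bmal1-/-: Col15a1, a basement membrane collagen gene, with a log2 fold change of -2.74 (adjusted p = 0.0179), Cd34 with -1.47 (adjusted p = 0.00644) and Thy1 with -1.28 (adjusted p = 0.0086). The summed level of all 10 was 25 to 38 CPM in Bmal1+/+ libraries and 9.35 to 15.9 CPM in the others. Pdgfra, which is shared by fibroblasts and stellate cells, had 5.36 ± 1.07 and 4.83 ± 0.800 CPM (SD, n = 4 each, adjusted p = 0.598). Of 9 lymphocyte markers, 6 were tested and 1 was lower, Ptprc, the pan-leukocyte gene, with -1.36 (adjusted p = 0.00631), and the sums were 24.3 to 29.2 CPM against 8.54 to 17.5 CPM.

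Of 7 epithelial and cholangiocyte markers, 4 were tested, 2 were lower and 2 higher. Krt19 (log2 fold change -2.18, adjusted p = 0.022) and Epcam (-1.31, adjusted p = 0.0497) were lower, and Sox9 (2.52, adjusted p = 1.32e-04) and Cdh1 (1.24, adjusted p = 0.00156) were higher. Of 5 cycling cell markers, 4 were tested and 2 were lower, Mki67 with -1.63 (adjusted p = 0.019) and Top2a with -1.48 (adjusted p = 0.00887). Among stellate cell products, the BMP ligand genes Bmp5 and Bmp10 had log2 fold changes of -1.53 (adjusted p = 0.00229) and -1.47 (adjusted p = 0.00254), without overlap between groups. Rspo3, of the same list, had 0.24 (adjusted p = 0.553).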
